A study of Homo sapiens with 6 samples.

Results

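The tricarboxylic acid (TCA) cycle, the entry of pyruvate into it and the carriers that pass citrate, malate and 2-oxoglutarate across the inner mitochondrial membrane were described through 34 genes. These were chosen by name, as the rows of the expression table whose gene identifier belongs to an enzyme or carrier of these steps, out of 60668 genes in the table and 21101 tested. All 34 were found, and all passed the filter on low values, with 98 to 6008 reads in a library. The RNA came from MiaPaCa-2, an established line from a human pancreatic ductal adenocarcinoma (PDAC), without any added genetic change named for these samples. The comparison was between 3 control libraries, from cells in medium with 25 mM glucose, and 3 low-glucose libraries, from cells kept for 48 h at 2.5 mM. Beyond glucose, the composition of the medium is not stated separately for these libraries. The results describe 1 cell line at 1 time.

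The TCA cycle oxidizes acetyl groups in the mitochondrial matrix and feeds electrons to the respiratory chain, and its intermediates are also drawn off for fatty acid, amino acid and glucose synthesis. Several steps exist in a mitochondrial and in a cytosolic form encoded by different genes. The cytosolic forms act on citrate and malate that carriers have exported, and cytosolic isocitrate dehydrogenase (IDH1) and malic enzyme (ME1) make NADPH, the reductant used against oxidative stress and in lipid synthesis. Pancreatic tumors are known for low glucose in their surroundings.

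Values are normalized read counts, that is, gene counts scaled by the size factor of their library. Replicate values are given in order of depth, as control libraries of 9741183, 10126218 and 10190154 reads and low-glucose libraries of 10595408, 10841656 and 13733477 reads. Per the labels, low-glucose replicate 1 is the library of 10841656 reads and replicate 2 that of 10595408 reads. The remaining 4 table columns were grouped by their names, which form a run of 3 for each condition. The treatment text in the labels gives the low concentration for all samples, whereas titles and methods describe a control. Replicates differed by more than sampling noise: the chi-square averaged over genes ranged from 4.63 to 18.9 between control libraries and from 1.90 to 2.89 between low-glucose libraries. Epithelial keratin transcripts KRT8, KRT18 and KRT19 were abundant, while EPCAM and CDH1 had at most 3 reads in a library. The keratin KRT7 was low, with 2 to 12 reads in a library. Its log2 difference was 0.85, higher in low glucose, and did not pass (limma adjusted p = 0.21). KRT8, KRT18 and KRT19 fell in low glucose by 1.005, 0.74 and 0.83 on the log2 scale (limma adjusted p = 3.26e-06, 4.29e-05 and 7.46e-06). The mesenchymal filament gene VIM rose by 0.42 (limma adjusted p = 0.00819). The part of these shifts in the results was not tested. Of 11 markers of acinar, endocrine, leukocyte, endothelial and fibroblast cells, 7 had 0 reads in every library, and the summed reads ranged from 184 to 210 among control libraries and from 19 to 44 among low-glucose libraries. CDH5 carried most of that fall, and its part in the results was not tested. In bulk RNA, fewer cells of a type and less RNA per cell cannot be told apart.

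Most genes of the pathway differed little between the conditions. Of the 34 members, 12 passed the test (35.3%; limma, adjusted p under 0.05), against 30.9% of all genes tested. All members had a mean count of 100 or more, and 48.0% of the genes at that level passed. Of the members, 3 rose (8.82%) and 9 fell (26.5%). For all genes tested, 14.7% rose and 16.2% fell, and for genes at the members' level 18.0% rose and 30.0% fell. On recovered reads, DESeq2 called 12 members and edgeR 13, against 31.5% and 42.8% of the genes each tool tested. The genes that rose were PCK2, IDH1 and ME1, and those that fell were MPC2, PDHX, IDH2, IDH3A, IDH3B, OGDH, DLST, SUCLA2 and FH. The median log2 fold change over the members was -0.14, against 0.05 over all genes tested and -0.08 over genes at the members' level. A change smaller than 1.2-fold was seen for 21 members (61.8%) and for 47.3% of the genes at their level. The values of the conditions did not overlap for 23 members, 5 higher and 18 lower in low glucose, and 11 of the 23 did not pass. Of all genes tested, 43.9% did not overlap. This share includes genes with lower counts and was not computed for genes at the members' level, so it is not a matched comparison.

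**Figure D1:**
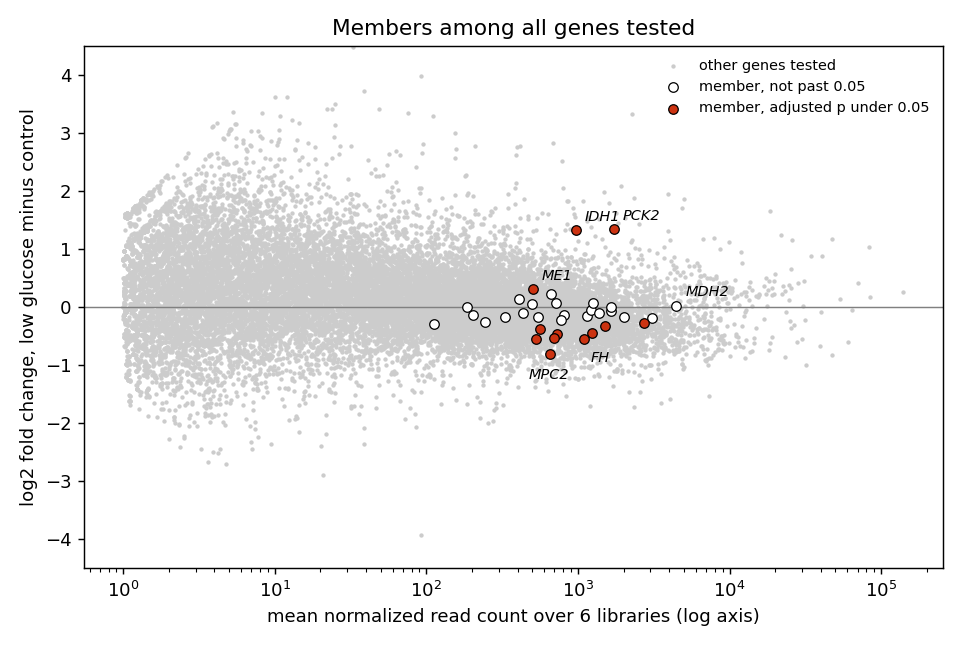
Log2 fold change (low glucose minus control, y axis) against the mean normalized read count over 6 libraries (x axis, log scale) for all genes tested (grey) and the 34 members (circles, red where the adjusted p was under 0.05). PCK2 and IDH1 stand apart at 1.34 and 1.33, most other members lie near 0, and 2 genes fall outside the limits of 4.5.

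By place, the 4 cytosolic members were ACO1, IDH1, MDH1 and ME1, of which 2 rose and 0 fell, with a median log2 fold change of 0.13. Of the 29 mitochondrial members, 1 rose and 8 fell, with a median of -0.15. In the matrix, 8 of 20 members passed (40.0%), and in the inner membrane 1 of 9 (11.1%), the pyruvate carrier subunit MPC2. Both mitochondrial places together had 31.0% passed, against 30.9% of all genes tested and 48.0% of genes at the members' level. At that level 18.0% of genes rose and 30.0% fell, with a median of -0.08. Fumarase, whose gene FH encodes both a matrix and a cytosolic form, fell. A difference between the places was not tested as such, but the ratio of paired enzymes within a library was, and those ratios are given with each pair.

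**Figure D2:**
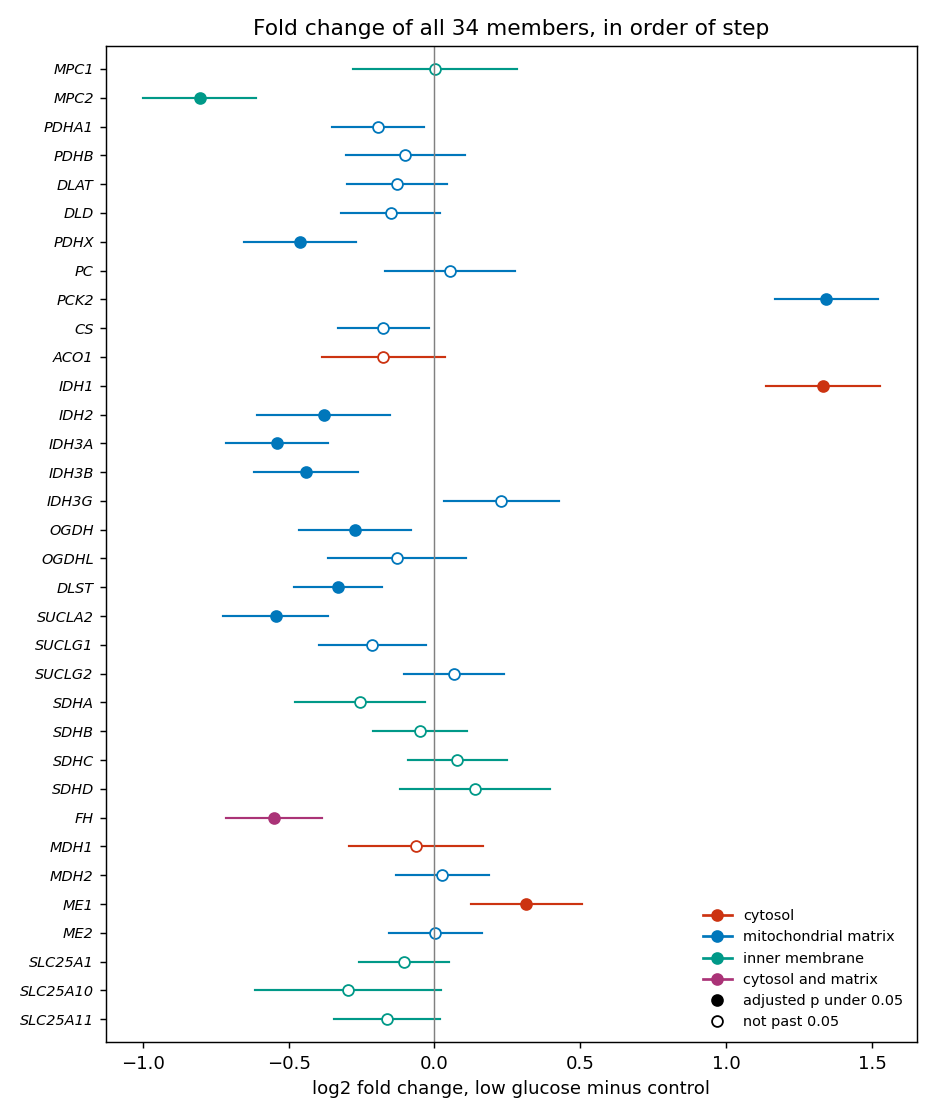
Log2 fold change (low glucose minus control, x axis) of the 34 members in order of step, with 95% confidence intervals. Filled circles passed the adjusted p of 0.05 and open circles did not, and color gives the place. The 3 rises, PCK2, IDH1 and ME1, stand to the right of 0, and the 9 falls span -0.80 to -0.27.

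Cytosolic NADP-dependent isocitrate dehydrogenase, IDH1, turns isocitrate into 2-oxoglutarate with the formation of NADPH. Its normalized read counts were 608, 504 and 540 in control and 1328, 1504 and 1323 in low glucose. Every low-glucose library exceeded every control library. The mean rose from 551 ± 52.7 to 1385 ± 103 (SD, n = 3), a log2 fold change of 1.33 (SE 0.0908, limma adjusted p = 1.80e-07), and 5.11% of the genes tested had a larger rise. Its mitochondrial counterpart IDH2 went the other way, with 539, 670 and 712 in control and 528, 478 and 463 in low glucose. The ranges of IDH2 lay close together but did not overlap, and it fell by 0.38 on the log2 scale (SE 0.107, limma adjusted p = 0.0143). The call on IDH2 was lost when low-glucose replicate 1 was left out (limma adjusted p = 0.0755) and when this was done with the low-glucose library of 13733477 reads (limma adjusted p = 0.0878).

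The log2 ratio of IDH1 to IDH2 within a library was 0.17, -0.41 and -0.40 in control and 1.33, 1.65 and 1.51 in low glucose. All 3 low-glucose ratios were above all 3 control ratios, and the ratio was 3.27-fold higher in low glucose. An exact permutation test, two-sided, gave p = 0.1, the smallest possible with 3 libraries against 3, and 0.125 after Benjamini-Hochberg adjustment over the 10 pairs examined. Per transcript length, IDH1 and IDH2 started at like levels, 43.2 ± 4.33 and 43.7 ± 5.58 TPM (a transcript level scaled to transcript length and to the library total) in control, and reached 105.9 ± 7.69 and 32.6 ± 1.94 TPM in low glucose. IDH1 thus made up 49.7% ± 5.74 of the summed TPM of both genes in control and 76.4% ± 2.02 in low glucose (SD, n = 3).

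Mitochondrial NAD-dependent isocitrate dehydrogenase, the form that works in the cycle itself, has a catalytic subunit, IDH3A, and the subunits IDH3B and IDH3G. IDH3A was at 861, 839 and 779 in control and 577, 549 and 578 in low glucose, a fall by 0.54 on the log2 scale (SE 0.0812, limma adjusted p = 1.70e-04). IDH3B was at 1395, 1327 and 1540 and then at 1119, 1027 and 990, a fall by 0.44 (SE 0.0834, limma adjusted p = 0.00105). Neither gene's conditions overlapped. The values of IDH3G were 602, 558 and 675 in control and 680, 764 and 704 in low glucose, a log2 difference of 0.23 (95% interval 0.03 to 0.43, limma adjusted p = 0.0734) that did not pass, though it did without the control library of 10190154 reads (0.30, limma adjusted p = 0.0130). IDH3G also passed under library-size scaling (0.31, limma adjusted p = 0.0236), quantile normalization (0.33, limma adjusted p = 0.0141) and edgeR (0.25, edgeR adjusted p = 0.0424). The share of IDH3G in the summed TPM of the 3 subunits was 28.9% ± 0.841 in control and 39.6% ± 2.40 in low glucose. The log2 ratio of IDH1 to IDH3A was 1.87 higher in low glucose (SE 0.112), with no overlap (exact permutation p = 0.1, adjusted 0.125).

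The other cytosolic rise was ME1, which converts malate to pyruvate and also forms NADPH. Its counts were 463, 467 and 415 in control and 546, 539 and 587 in low glucose, with no overlap, and the log2 fold change was 0.31 (SE 0.0889, limma adjusted p = 0.0147). Leaving out low-glucose replicate 2 ended this call (limma adjusted p = 0.0522), as did leaving out the deepest library, of 13733477 reads (limma adjusted p = 0.0830). The mitochondrial malic enzyme ME2 had 1688, 1580 and 1707 in control and 1670, 1589 and 1723 in low glucose. These values of ME2 lay in the same range, and the log2 difference was 0.00 (95% interval -0.16 to 0.16). Under quantile normalization ME2 passed as higher (0.21, limma adjusted p = 0.0484). The ratio of ME1 to ME2 was 1.24-fold higher in low glucose, without overlap (exact permutation p = 0.1, adjusted 0.125). The ME1 share of their summed TPM was 42.2% ± 2.39 and 47.6% ± 0.560.

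The 250 bases before the RefSeq start of each gene (GRCh38.p14) were searched on both strands for the core of the NRF2 antioxidant element, TGACNNNGC, a motif long linked to NADPH-forming enzymes. Such windows were given for 32 of the 34 members, without SDHC and OGDH. A match was present in 6 of the 32 (18.8%) and in 13.2% of all 27305 genes with a window. IDH1 and ME1 were the only ones of the 6 matched members that passed the test. Of all members 35.3% passed, and of genes at the members' level 48.0%. The other matches were in IDH3G, MPC1, OGDHL, where it shares bases with an E-box, and SLC25A1. The matches of IDH1 and ME1 are shown because these members rose together, as the coding-strand sequence with the matched letters in capitals, at chr2:208255196-208255224 (minus strand) for IDH1 and chr6:83431170-83431198 (minus strand) for ME1. They end 135 and 129 bases before the RefSeq start. The ME1 match lies upstream of the gene in Gencode, while that of IDH1 lies inside the span of the gene, because longer transcripts start further upstream. The match is a description of letters only, and a link between the motif and the rises was not tested.
IDH1: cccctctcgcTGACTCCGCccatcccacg
ME1: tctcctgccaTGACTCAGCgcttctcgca

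The largest rise among the members was that of PCK2, mitochondrial phosphoenolpyruvate carboxykinase, which turns oxaloacetate into phosphoenolpyruvate and so draws carbon out of the cycle. Its counts were 939, 908 and 1074 in control and 2427, 2594 and 2377 in low glucose. The lowest low-glucose value was above the highest control value by a wide margin. The mean rose from 974 ± 88.1 to 2466 ± 114 (SD, n = 3), a log2 fold change of 1.34 (SE 0.0826, limma adjusted p = 5.65e-08), which 5.01% of the genes tested exceeded. PC, pyruvate carboxylase, which makes oxaloacetate and replenishes the cycle, had 462, 577 and 437 in control and 501, 516 and 503 in low glucose. Its control values enclosed its low-glucose values, and the log2 difference was 0.05 (95% interval -0.17 to 0.28). The ratio of PCK2 to PC was 2.44-fold higher in low glucose, without overlap (exact permutation p = 0.1, adjusted 0.125). The cytosolic isoform PCK1 had 0 reads in all 6 libraries. At 95% confidence, a count of 0 in 1 library taken alone still allows an expected count of up to 3. PCK2 and IDH1 were the only members past a log2 fold change of 1 in either direction.

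**Figure D3:**
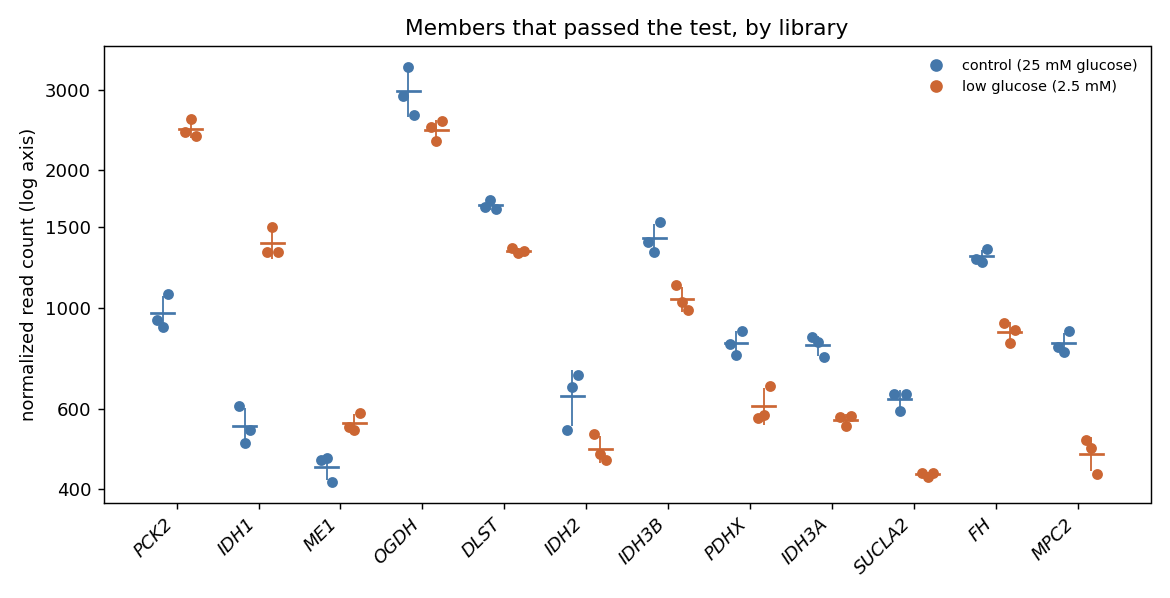
Normalized read counts (y axis, log scale) of the 12 members that passed the test, in each of 3 control (blue) and 3 low-glucose (orange) libraries, with lines for the mean and bars for the SD. PCK2 and IDH1 show the widest gaps between the conditions, and the 9 members on the right were lower in every low-glucose library.

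At pyruvate entry, the subunits of the mitochondrial pyruvate carrier differed in their values. MPC2 counts were 822, 798 and 887 in control and 512, 492 and 433 in low glucose, so all low-glucose values lay well below control. It fell by 0.80 on the log2 scale (SE 0.0902, limma adjusted p = 1.35e-05), the largest fall among the members. MPC1, its partner in the heterodimer, was at 210, 157 and 192 in control and at 170, 186 and 201 in low glucose. Its conditions overlapped, with a log2 difference of 0.00 (95% interval -0.28 to 0.28). The ratio of MPC1 to MPC2 was 1.75-fold higher in low glucose without overlap (exact permutation p = 0.1, adjusted 0.125), and the MPC1 share of their summed TPM went from 35.3% ± 3.01 to 48.8% ± 4.21.

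The pyruvate dehydrogenase complex links pyruvate to the cycle as acetyl-CoA. Of its 5 genes, 1 passed. PDHX, the protein that holds the dihydrolipoamide dehydrogenase to the core, was at 834, 788 and 891 in control and 573, 581 and 674 in low glucose. The conditions did not overlap, and PDHX fell by 0.46 on the log2 scale (SE 0.0901, limma adjusted p = 0.00134). The catalytic E1 alpha subunit PDHA1 was at 3261, 3129 and 3488 and then at 2810, 2942 and 2887, with no overlap and a log2 difference of -0.19 (95% interval -0.35 to -0.03, limma adjusted p = 0.0613). Without the control library of 10126218 reads PDHA1 passed (-0.23, limma adjusted p = 0.00360), as it did with a filter at a mean of 5 (limma adjusted p = 0.0497). PDHB, DLAT and DLD, which encode E1 beta, the acetyltransferase core and the dihydrolipoamide dehydrogenase, had log2 differences of -0.10, -0.13 and -0.15 and limma adjusted p of 0.468, 0.246 and 0.167. DLD did pass without the control library of 10126218 reads (-0.19, limma adjusted p = 0.0418). In shares of the complex's summed TPM, PDHX went from 15.4% ± 0.292 to 12.9% ± 0.826 while PDHA1 was at 45.2% ± 0.774 and 45.6% ± 1.15.

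**Figure D4:**
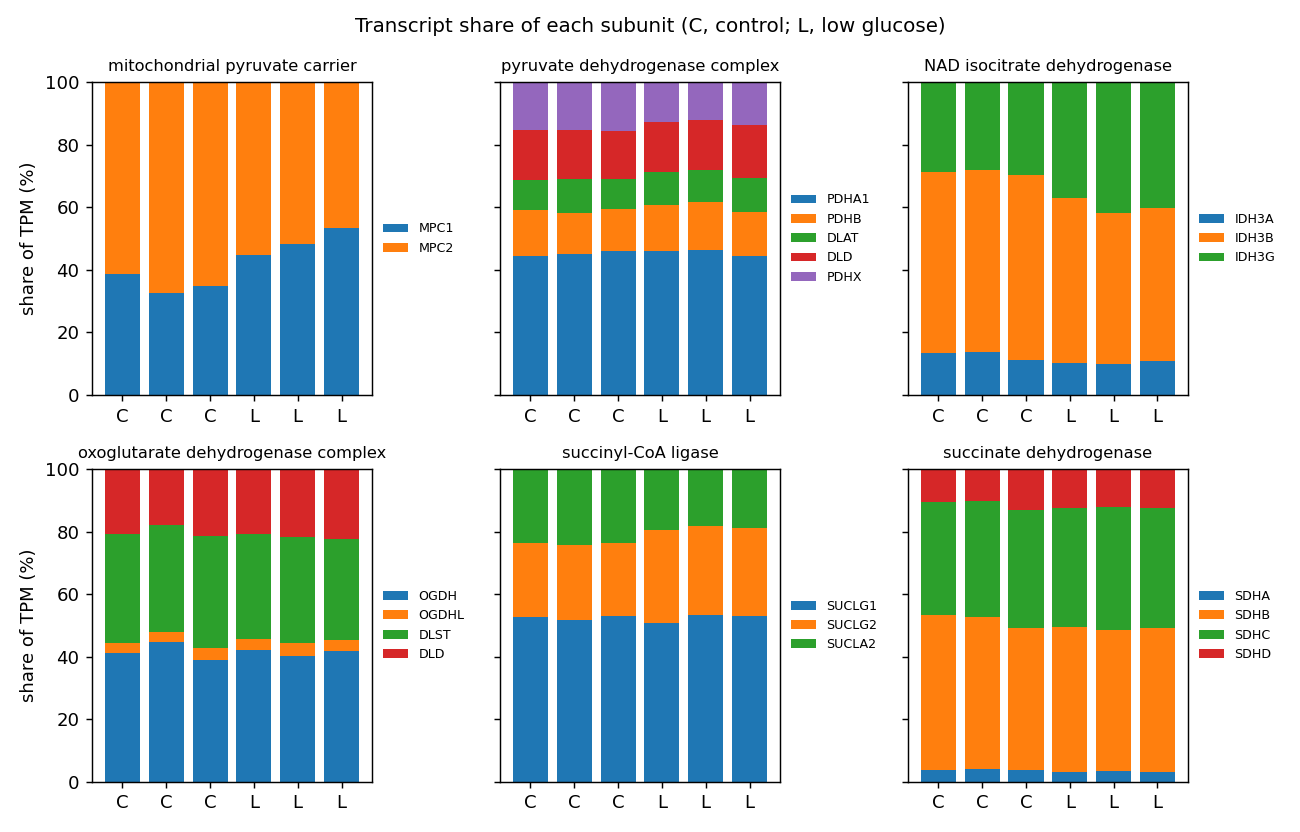
Share of each subunit in the summed TPM of its complex (y axis, %), one bar for each library (C, control; L, low glucose). MPC1 and IDH3G take larger shares in low glucose (48.8% and 39.6% on average, against 35.3% and 28.9%). Shares in the oxoglutarate dehydrogenase and succinate dehydrogenase complexes differ by less. The small SDHA share averaged 3.88% in control and 3.22% in low glucose, without overlap, and is uncertain because of the pseudogene copies of SDHA.

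Citrate synthase (CS), which joins acetyl-CoA to oxaloacetate, was at 2105, 2149 and 2112 in control and 1824, 1824 and 1992 in low glucose. Its conditions did not overlap, and the log2 difference of -0.18 did not pass (95% interval -0.33 to -0.02, limma adjusted p = 0.0818), except without the control library of 10126218 reads (-0.17, limma adjusted p = 0.0438). The cytosolic aconitase ACO1, an iron-sulfur enzyme that also binds iron-responsive RNA elements, was at 321, 376 and 349 and then at 296, 310 and 318 (log2 difference -0.18, limma adjusted p = 0.197).

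The oxoglutarate dehydrogenase complex turns 2-oxoglutarate into succinyl-CoA. DLST, its succinyltransferase core, was at 1661, 1720 and 1650 in control and 1349, 1317 and 1333 in low glucose, a tight and separate pair of ranges. It fell by 0.33 on the log2 scale (SE 0.0711, limma adjusted p = 0.00262), a call that quantile normalization ended (limma adjusted p = 0.145). The E1 gene OGDH was at 2920, 3378 and 2651 and then at 2497, 2317 and 2563, and fell by 0.27 (SE 0.0902, limma adjusted p = 0.0323). OGDH is the least certain of the 12 calls. It was lost without the control library of 9741183 reads (limma adjusted p = 0.0894), without low-glucose replicates 2 (0.101) or 1 (0.168) and without the third, of 13733477 reads (0.0788), under scaling by library size (0.0997) and under quantile normalization (0.430). The alternative E1 gene OGDHL was at 214 ± 13.2 and 195 ± 9.83 (SD, n = 3; log2 difference -0.13, limma adjusted p = 0.416), and the ratio of OGDHL to OGDH overlapped between the conditions (exact permutation p = 0.4, adjusted 0.4).

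Succinyl-CoA ligase pairs the common subunit SUCLG1 with SUCLA2, which makes the enzyme ADP-forming, or with SUCLG2, which makes it GDP-forming. SUCLA2 was at 648, 594 and 645 in control and at 434, 425 and 433 in low glucose. The low-glucose values were nearly equal and far below control, and SUCLA2 fell by 0.54 on the log2 scale (SE 0.0839, limma adjusted p = 2.04e-04). SUCLG2 was at 716, 652 and 719 and then at 735, 729 and 721, a log2 difference of 0.07 (95% interval -0.10 to 0.24, limma adjusted p = 0.575). The log2 ratio of SUCLG2 to SUCLA2 was 0.14, 0.13 and 0.16 in control and 0.76, 0.78 and 0.73 in low glucose. This was the tightest of the 10 pairs within each condition, and the ratio was 1.53-fold higher in low glucose (exact permutation p = 0.1, adjusted 0.125). SUCLG1 was at 834 ± 64.0 and 718 ± 34.6 (SD, n = 3; log2 difference -0.21, 95% interval -0.40 to -0.03, limma adjusted p = 0.0727), and it passed without the control library of 10126218 reads (-0.28, limma adjusted p = 0.00486).

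**Figure D5:**
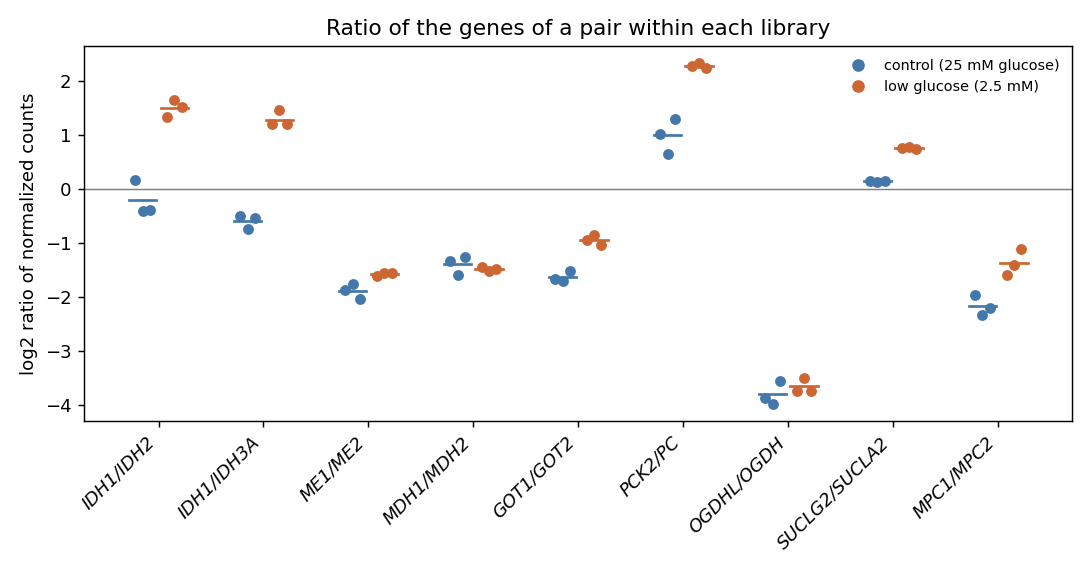
Log2 ratio of the normalized read counts of the genes of a pair (y axis) in each control (blue) and low-glucose (orange) library for 9 pairs, with lines for the mean. The ratio does not overlap between the conditions for 7 pairs, with the widest gaps at IDH1/IDH3A (1.87) and IDH1/IDH2 (1.71), and overlaps for MDH1/MDH2 and OGDHL/OGDH.

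Succinate dehydrogenase, which is also complex II of the respiratory chain, had 0 of 4 genes past the test by limma, DESeq2 or edgeR, and 1 (SDHA) at an unadjusted limma p under 0.05. Its membrane and iron-sulfur subunits SDHB, SDHC and SDHD had log2 differences of -0.05, 0.08 and 0.14, with overlapping conditions and limma adjusted p of 0.668, 0.499 and 0.417. SDHD passed without the control library of 10190154 reads (0.29, limma adjusted p = 0.0317). The flavoprotein gene SDHA was at 270, 249 and 279 in control and at 212, 229 and 226 in low glucose, with no overlap and a log2 difference of -0.26 (95% interval -0.48 to -0.03, limma adjusted p = 0.0759). Without the control library of 10126218 reads SDHA passed (-0.30, limma adjusted p = 0.0296). Quantile normalization called SDHC higher (0.25, limma adjusted p = 0.0307) and SDHA lower (-0.30, limma adjusted p = 0.0398). SDHA has near-identical pseudogene copies, and its value is uncertain for that reason. SDHAP4, SDHAP1 and SDHAP3 carried 154%, 111% and 108% of the SDHA count and were higher in low glucose by 0.41, 0.35 and 0.33 (limma adjusted p 0.0147, 0.0320 and 0.105). SDHA and 4 copies summed to 1064 ± 139 in control and 1243 ± 40.0 in low glucose, the opposite direction to SDHA alone. At 17.9 TPM in control, SDHA stood far below SDHB at 220.7 TPM.

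Fumarase and malate dehydrogenase complete the cycle. FH was at 1281, 1261 and 1347 in control and 927, 837 and 895 in low glucose. No low-glucose value came near control, and FH fell by 0.55 on the log2 scale (SE 0.0773, limma adjusted p = 9.82e-05). The mitochondrial malate dehydrogenase MDH2, the most abundant member per transcript length at 368 TPM in control and 366 TPM in low glucose, was at 4467, 4124 and 4623 and then at 4430, 4468 and 4552. Its log2 difference was 0.03 (95% interval -0.13 to 0.19), and under quantile normalization MDH2 passed as higher (0.24, limma adjusted p = 0.0222). The cytosolic MDH1 was at 1784, 1365 and 1941 and then at 1626, 1572 and 1624 (log2 difference -0.06, limma adjusted p = 0.704). The control library of 10126218 reads was low for MDH1, which passed without it (-0.21, limma adjusted p = 0.0122). The ratio of MDH1 to MDH2 overlapped between the conditions (exact permutation p = 0.4, adjusted 0.4).

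That control library held the lowest control value for 21 of the 34 members, whereas the control library of 10190154 reads held the highest for 18. Without the former, 18 members passed, and without the latter 15, against 12 with all libraries. Over all genes tested, 7173 and 7152 passed in these fits, against 6528 with all libraries.

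Among the carriers, 0 of 3 passed by limma, DESeq2 or edgeR, and 0 had an unadjusted limma p under 0.05. SLC25A1, which exports citrate to the cytosol, was at 1396, 1411 and 1464 in control and at 1325, 1304 and 1342 in low glucose. The conditions did not overlap, with a log2 difference of -0.10 (95% interval -0.26 to 0.05, limma adjusted p = 0.298). The oxoglutarate-malate carrier SLC25A11 was at 574 ± 12.8 and 513 ± 31.3 (SD, n = 3; log2 difference -0.16, limma adjusted p = 0.168). The dicarboxylate carrier SLC25A10 was at 126, 142 and 105 and then at 96.8, 101 and 102 (log2 difference -0.30, limma adjusted p = 0.149), and passed without the control library of 10190154 reads (-0.41, limma adjusted p = 0.0422). All 3 were lower in each low-glucose library than in each control library, while 43.9% of all genes tested did not overlap in either direction. Under quantile normalization SLC25A1 was higher in low glucose instead (0.078, limma adjusted p = 0.467).

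The promoter windows were also searched for the NRF1 element, a motif common in nuclear genes for mitochondrial proteins. It was present in 7 of 32 members (21.9%) and in 6.20% of genes with a window, and 3 of these members, MPC2, SUCLA2 and IDH3A, fell. The remaining 4, IDH3G, SDHA, SDHD and SLC25A11, did not pass. Of all members 26.5% fell, and of genes at the members' level 30.0% fell. A link between the element and the falls was not tested, and the matches describe letters only. The matches of the members that fell are given on the coding strand, with the matched letters in capitals, at chr1:167936152-167936181 (minus strand) for MPC2, chr13:48001292-48001321 (minus strand) for SUCLA2 and chr15:78149342-78149361 (plus strand) for IDH3A. They lie inside the Gencode span of each gene, since longer transcripts start further upstream. In MPC2 the element reads on the other strand.
MPC2: agctcggcctGCGCAAGCGCgctgccagca
SUCLA2: tgtcgcctgtGCGCCTGCGCgcggcgccga
IDH3A: cgtggggtggGCGCTTGCGC
Other motifs searched were the C/EBP-ATF composite element TGATGNAA (1 member, SLC25A11; 3.89% of genes), the ER stress element (0 members; 0.0916% of genes), the E-box CACGTG (2 members, OGDHL and PDHB; 7.73% of genes), the ETS element CCGGAAGT (4 members, 12.5%; 4.13% of genes) and the CCAAT box (17 members, 53.1%; 37.0% of genes). PCK2, the member that rose most, held a CCAAT box and no match to the others.

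Several members share exon bases with a gene on the other strand. The libraries were strand-specific, but the strand setting of the counting is not given in the sources used here, so reads of such partners cannot be told apart with certainty. MPC2 shares 575 bases with DCAF6, whose count was 212% of that of MPC2 and which fell by 0.72 on the log2 scale (limma adjusted p = 4.33e-06). IDH3A shares 2608 bases with ACSBG1 (49.6% of its count), which fell by 0.53 (limma adjusted p = 0.00110). IDH3G shares 267 bases with SSR4 (205%), which rose by 0.38 (limma adjusted p = 0.0184). PDHX shares 152 bases with APIP (54.0%), whose log2 difference was -0.30 (limma adjusted p = 0.0600). In these cases the partner's value differed in the same direction as the member's, and the part of shared reads in the result was not tested. DLD shares 300 bases with LAMB1 (10.8%), which rose by 0.62 (limma adjusted p = 0.0378). IDH1 shares 94 bases with IDH1-AS1, which had 1 to 9 reads.

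Beyond the members, 60 genes of the same pathway were listed, of which 55 were tested and 19 passed (34.5%), 9 higher and 10 lower. The median log2 fold change of the 55 was -0.04. Of all genes tested 30.9% passed, and of genes with a mean of 100 or more 48.0%. Some of the listed genes had lower means, so neither share is matched to them. Both shares are the background for the counts by list that follow. Of 8 further isoforms and steps, 5 were tested and 2 fell. ACLY, which splits exported citrate into acetyl-CoA and oxaloacetate in the cytosol, went from 5961 ± 616.5 to 3926 ± 99.8 (SD, n = 3), a fall by 0.60 on the log2 scale (limma adjusted p = 9.44e-05). The mitochondrial malic enzyme ME3 was near the floor, at 1.10 ± 1.11 and 4.29 ± 3.18 (limma adjusted p = 0.150).

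Of 7 tested genes of the malate-aspartate shuttle and other carboxylate carriers, 1 rose and 3 fell. The cytosolic aspartate aminotransferase GOT1 rose from 1048 ± 61.9 to 1342 ± 71.9 (log2 0.36, limma adjusted p = 0.00350), and the mitochondrial GOT2 fell from 3232 ± 209 to 2571 ± 45.1 (by 0.33, limma adjusted p = 0.00387). The ratio of GOT1 to GOT2 was 1.61-fold higher in low glucose, without overlap (exact permutation p = 0.1, adjusted 0.125). The aspartate-glutamate carrier SLC25A13 fell by 0.51 (limma adjusted p = 0.00128), the most in this list. For IDH1 against IDH2, ME1 against ME2 and GOT1 against GOT2, the ratio of the cytosolic to the mitochondrial form was thus higher in every low-glucose library than in any control library. That of MDH1 to MDH2 overlapped.

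Cofactor genes went in both directions. Of 10 tested genes for lipoate, thiamine and biotin, 3 rose and 2 fell, led by LIPT1, a lipoyltransferase of the dehydrogenase complexes (26.8 ± 9.96 and 46.0 ± 6.33, log2 0.83, limma adjusted p = 0.0436), and MCAT, of mitochondrial fatty acid synthesis (a fall by 0.55, limma adjusted p = 0.00230). Of 13 genes of iron-sulfur cluster assembly, 2 rose and 3 fell, with the scaffold ISCU up by 0.66 (limma adjusted p = 2.54e-04) and GLRX5 down, from 1105 ± 164 to 757.0 ± 36.6 (limma adjusted p = 8.95e-04). Of 4 succinate dehydrogenase assembly factors, 0 passed by limma, DESeq2 or edgeR, and 0 had an unadjusted limma p under 0.05.

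Of the 7 pyruvate dehydrogenase kinases and phosphatases, which switch the complex off and on, only PDK1, a kinase, passed, with 92.4 ± 9.60 in control and 139 ± 19.1 in low glucose (log2 0.58, limma adjusted p = 0.00948). Of 6 genes for glutamine entry and cytosolic acetyl-CoA, 1 passed, the glutaminase GLS2, at 20.2 ± 2.27 and 35.0 ± 1.45 (log2 0.77, limma adjusted p = 0.0310). Of 3 genes of 2-hydroxyglutarate breakdown and formation, D2HGDH, which returns 2-hydroxyglutarate to 2-oxoglutarate, rose from 230 ± 16.7 to 343 ± 15.5 (log2 0.58, limma adjusted p = 5.98e-04).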

How the data were processed

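RNA-seq libraries of MiaPaCa-2 cells, 3 in control medium and 3 in low glucose, were analysed from 1 table for the whole series. According to the methods and the submitters' processing notes, the authors trimmed the reads with Trim Galore, mapped them to hg38 with STAR (2.7.0e) and used DESeq2. The study's software list also names RSEM. Which tool gave the counts, its strand setting and the annotation are not given in the sources used here. The deposited values are a signal, gene counts scaled by a size factor for the library, and in each library 100% of the values came out as whole reads (tolerance 0.0001). Symbols came from Gencode 44, which matched 99.4% of the identifiers.

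Genes with a mean of at least 1 over the 6 libraries were tested on log2(value + 1), so fold changes of low genes are understated, with limma 3.58.1 in R 4.3.3 (eBayes with a mean-variance trend; two-sided; threshold 0.05 after Benjamini-Hochberg adjustment) and no covariate. Recovered reads were tested with edgeR 4.0.16 (6554 of 15322 genes called) and DESeq2 1.42.0 (5486 of 17421) as alternatives. TPM were computed from recovered reads and Ensembl canonical transcript lengths. Ratios within a library were compared by exact permutation tests, adjusted over 10 pairs. Scripts were tested on simulated data. With 3 libraries per condition, p-values set a difference against the spread between these cultures only. In limma that spread is moderated by the trend over all genes tested. Promoter sequences were RefSeq's (GRCh38.p14). Tables and figures used Python 3.11.15, pandas 2.3.3, numpy 2.4.6, scipy 1.17.1 and matplotlib 3.10.9.

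Named were all 34 members and, of the listed further genes, ACLY, PCK1, ME3, both genes of each pair, and in each list the largest rise and the largest fall past the threshold. Genes on the other strand and copies of SDHA were added as limits. Part of what this rule and the pairs cover is not reported here. Members, lists and pairs were chosen with earlier results of these data known. Alternatives were quantile normalization, TMM or library-size scaling, a filter at a mean of 5 or none, a pseudocount of 0.1, no variance trend, DESeq2, edgeR, a minimum log2 fold change of 1 in size, and the omission of single libraries.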

Additional observations from a re-analysis of the deposited data

How the results depend on the processing

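Of the 12 members that passed, 8 passed in each of the 15 refits made per gene (PCK2, IDH1, MPC2, PDHX, IDH3A, IDH3B, SUCLA2 and FH). IDH2 and ME1 were lost without a variance trend (limma adjusted p = 0.113 and 0.0744), as was OGDH (0.172). The number passed was 9 without a trend, 15 with quantile normalization, 12 with DESeq2 and 13 with edgeR. Of all 21101 genes tested, 6528 passed in the main fit, 4090 without a trend and 6025 with quantile normalization. With 1 library left out, 4298 to 7173 of these genes passed. With a minimum log2 fold change of 1 in size, 2 members passed, 0 lower, 1 cytosolic, 1 mitochondrial, and 0 of the further genes. Quantile normalization gave 7 higher members, and no variance trend gave 1 cytosolic member and 12 further genes. With 1 library left out, 9 to 18 members passed, 2 to 5 higher, 7 to 15 lower, 1 to 3 cytosolic, 7 to 14 mitochondrial, and 13 to 23 further genes. The counts of 15 lower and 14 mitochondrial were without the control library of 10126218 reads, that of 5 higher without the one of 10190154, and that of 1 cytosolic without low-glucose replicate 2 or the library of 13733477 reads. Leaving out a library moved the IDH1 to IDH2 difference between 1.61 and 1.90, and no pair changed direction. Under library-size scaling, 3935 genes of all tested were called higher and 2647 lower, against 3111 and 3417, and moved the median of all genes from 0.05 to 0.13.

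Of 510 refits of single members, 19 reversed the direction, all of members that had not passed. With quantile normalization the log2 difference was -0.0581 for MPC1, 0.0019 for DLAT, 0.0143 for DLD, 0.0445 for CS, 0.12 for SDHB, 0.15 for MDH1 and 0.078 for SLC25A1. Library-size scaling gave 0.0312 for SDHB and 0.0183 for MDH1, and DESeq2 gave -0.0027 for MPC1. With single libraries left out, the log2 difference ranged from -0.11 to 0.0923 for MPC1, from -0.0279 to 0.173 for PC, from -0.211 to 0.0423 for MDH1, from -0.0195 to 0.0628 for MDH2 and from -0.0321 to 0.0336 for ME2. The lowest values of MPC1, MDH1, MDH2 and ME2 came without the control library of 10126218 reads, and that of PC without the one of 10190154. The cause of these changes was not tested.

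No paired analysis was possible because replicate numbers are missing for 4 of the 6 columns. The smallest exact p with 3 libraries against 3 was 0.1, above 0.05 for every ratio. The widest standard error among the members was that of SLC25A10 (0.149, log2 scale), which also had the fewest reads in a library (98).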
